A study of Mus musculus with 7 samples.

Results

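The 10 genes described here encode cyclic nucleotide phosphodiesterases: Pde9a, Pde1c, Pde2a, Pde3b, Pde4b, Pde4d, Pde5a, Pde7b, Pde8a and Pde10a. They were picked by symbol from the 55335 genes counted in long-read RNA sequencing of mouse neural stem cells (NSCs), with the difference of Pde9a between genotypes already known, so their values by genotype are given as a description without a test. The samples were 4 wild-type (WT) and 3 *Smchd1*-null NSC samples, all of strain FVB/N, and the mutant allele is labelled Smchd1MommeD1. Smchd1 encodes a chromatin repressor. All cells were grown in proliferation medium with EGF and bFGF and received no treatment. The labels give no age, and they do not say whether replicates came from separate animals. A p-value thus sets a difference against the spread between these samples, which may not be that between animals. PolyA RNA was sequenced as nanopore direct cDNA in 2 batches with different library kits. Batch 1 held WT replicate 2 with *Smchd1*-null replicates 1 and 2, batch 2 held *Smchd1*-null replicate 3 with WT replicates 3 and 4, and WT replicate 1 was in both.

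Phosphodiesterases end cyclic nucleotide signals by hydrolysing cAMP, cGMP or both to the inactive monophosphates. Adenylyl cyclases and guanylyl cyclases make these messengers, and protein kinase A, protein kinase G, Epac exchange factors and ion channels read them. Each phosphodiesterase differs in its substrate, its regulation and the place in the cell where it acts, so a cell commonly expresses several at once.

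Library totals ranged from 2.74 to 7.74 M counts, and no pair of libraries of the same genotype matched within sampling noise. Smchd1 itself averaged 63.4 ± 9.09 CPM over the WT samples (SD, n = 4) and 16.1 ± 2.97 CPM over the mutants (SD, n = 3). CPM here means counts per M counts of the library after TMM scaling. Summed neural stem cell markers lay between 8899 and 13759 CPM in WT and between 8555 and 10055 CPM in *Smchd1*-null samples. WT replicate 4 stood apart in glial markers, with 946 CPM of summed astrocyte markers against 335 to 440 CPM in the other WT samples and 764 CPM of summed oligodendrocyte markers against 146 to 286 CPM.

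Of the 10 genes, 7 passed the filter on low counts and entered the fits: Pde9a, Pde1c, Pde3b, Pde4b, Pde4d, Pde7b and Pde10a. Pde5a and Pde8a were counted at a few reads per library and Pde2a at 0, and these 3 were not fitted. The counts are therefore far apart in precision, from 590 to 1659 counts over all samples for the 4 most counted genes down to 36 for Pde8a.

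Pde9a, which hydrolyses cGMP with high affinity and does not act on cAMP, was lower in *Smchd1*-null than in WT samples. The gene (ENSMUSG00000041119.12) lies on the plus strand of chr17:31386210-31476310 in GRCm38. The WT replicates 1 to 4 had 100, 92, 87 and 140 counts, or 24.4, 20.4, 22.8 and 24.0 CPM. The *Smchd1*-null replicates 1 to 3 had 28, 77 and 66 counts, or 10.5, 10.2 and 14.3 CPM. Every WT sample lay above every *Smchd1*-null sample, and the highest of the *Smchd1*-null values was that of replicate 3, the one from batch 2. Pde9a averaged 22.9 ± 1.79 CPM over the WT samples (SD, n = 4) and 11.7 ± 2.26 CPM over the mutants (SD, n = 3), which thus held 51.0% of the WT level. The fitted log2 fold change, without a batch term, was -1.08 with an SE of 0.19. With the batch share as a covariate it was -0.89 with an SE of 0.17. The difference in log-CPM was -0.95 within batch 1 and -0.70 within batch 2. Both differences leave out WT replicate 1. They rest on WT replicate 2 alone for WT in batch 1, and on replicate 3 alone for *Smchd1*-null in batch 2.

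The 4 WT values of Pde9a were close together. Their coefficient of variation was 7.82%, against 9.77% for counting error alone at these counts. The spread among WT samples was thus no wider than counting error. The exons of Pde9a overlap those of 2 antisense genes, AC166172.6 by 138 bases and AC166172.5 by 157 bases. The first had 0 counts in all 7 libraries and the second had 0 to 3 per library, so few reads were assigned to them.

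Across the 13305 genes tested, 0.0902% passed an adjusted p of 0.05 in the limma fit of genotype (0.0451% were lower in *Smchd1*-null samples), 1.08% passed 0.25 (0.609% lower), and 5.53% had genotypes that did not overlap (3.01% lower). Among the 7 fitted phosphodiesterases, 1 gene, Pde9a, met each of these 3 criteria. Since this contrast chose the genes, nothing is read from that count. It also rested on single libraries: at 0.05 the count was 0 when WT replicate 1, 3 or 4 or *Smchd1*-null replicate 1 or 2 was left out, while the log2 fold change of Pde9a stayed between -1.16 and -0.86. Summed astrocyte markers ranged from 335 to 946 CPM in WT and from 247 to 404 CPM in *Smchd1*-null samples, with overlap, and of the 4 tested markers 1 passed 0.25, Aldoc (log2 fold change -0.81, limma adjusted p = 0.233). None of the 5 astrocyte markers was at 0 in all libraries, and Gfap, the classical one, was low in both genotypes at 2.43 ± 2.53 CPM in WT samples (SD, n = 4) against 1.85 ± 2.55 CPM in the mutants (SD, n = 3). Of 6 microglia and blood markers 0 were tested, and their sum was at most 2.23 CPM. The part of these markers in the lower level of Pde9a was not tested. In bulk samples, fewer cells of a type and less RNA per cell cannot be told apart. Without WT replicate 4, the sample high in glial markers, the log2 fold change of Pde9a was -1.07. WT replicates 1 to 3 had 440, 335 and 415 CPM of summed astrocyte markers, against 254, 247 and 404 CPM in *Smchd1*-null replicates 1 to 3. Leaving out that sample therefore does not test the part of these markers.

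**Figure D1:**
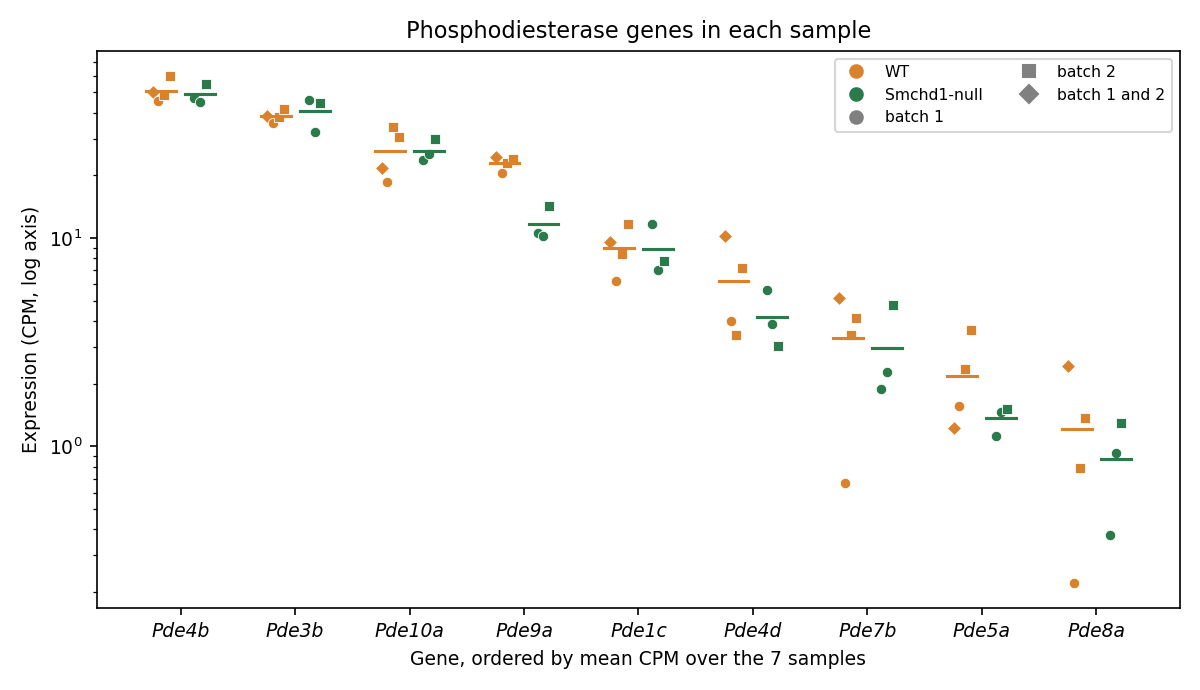
Expression in CPM on a log axis for 9 of the 10 phosphodiesterase genes (Pde2a, at 0 in all samples, is not drawn). Each point is 1 sample, coloured by genotype and shaped by batch, and each bar is the mean of a genotype. The 4 WT points of Pde9a lie between 20.4 and 24.4 CPM and the 3 Smchd1-null points between 10.2 and 14.3 CPM, while the points of the other genes overlap between genotypes.

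Pde5a is the other enzyme of the set that is specific for cGMP and is the target of sildenafil. It was counted 5, 7, 9 and 21 times in WT replicates 1 to 4 and 3, 11 and 7 times in *Smchd1*-null replicates 1 to 3. Its mean was 2.18 ± 1.06 CPM for WT (SD, n = 4) and 1.37 ± 0.21 CPM for the mutants (SD, n = 3), with overlapping values. No difference was tested at these counts.

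The next 4 genes encode enzymes that accept both messengers or whose action on one is governed by the other. Pde10a, known for its high level in the medium spiny neurons of the striatum, had 21.7, 18.7, 34.1 and 30.5 CPM in WT replicates 1 to 4 and 23.6, 25.3 and 29.9 CPM in *Smchd1*-null replicates 1 to 3. The genotype means were almost the same, at 26.2 ± 7.25 CPM (SD, n = 4) and 26.3 ± 3.23 CPM (SD, n = 3), and the log2 fold change was -0.03 with an SE of 0.20. Within both genotypes the values of batch 2 were the higher ones. Pde10a lies on the same chromosome as Pde9a, on the plus strand of chr17:8525372-8986648.

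Pde3b, the cGMP-inhibited enzyme that lowers cAMP in response to insulin, had 38.3, 35.8, 38.0 and 41.7 CPM in WT and 45.8, 32.2 and 44.4 CPM in *Smchd1*-null samples. The log2 fold change was close to 0, with an SE of 0.17, and the *Smchd1*-null values lay on both sides of the WT range. Pde1c, which is activated by calcium and calmodulin, had 9.52, 6.22, 8.39 and 11.66 CPM in WT and 11.64, 7.05 and 7.79 CPM in *Smchd1*-null samples, again overlapping, with a log2 fold change of -0.07 and an SE of 0.27.

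Pde2a, the enzyme that cGMP stimulates, was listed at 0 in all 7 libraries. Its exons share 3955 bases on the same strand with Gm45837, which was also listed at 0 in all 7. How reads falling on both genes were counted is not given in the sources used here, so the 0 is not a measure of the level of Pde2a.

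The remaining 4 genes encode enzymes specific for cAMP. Pde4b, of the rolipram-sensitive group, was the most counted of the 10 genes, with 50.1, 45.3, 48.5 and 59.8 CPM in WT and 46.9, 45.0 and 54.8 CPM in *Smchd1*-null samples. The groups overlapped, and the log2 fold change was -0.08 with an SE of 0.14, the smallest error of the set. Its relative Pde4d had 10.3, 4.00, 3.41 and 7.20 CPM in WT and 5.63, 3.86 and 3.03 CPM in *Smchd1*-null samples. WT replicate 1 held the highest of these values, and the log2 fold change was -0.41 with an SE of 0.38. The difference in log-CPM of Pde4d was 0.20 within batch 1 and -0.65 within batch 2, so the batches differed in direction. WT replicate 1 was part of neither difference. The fitted log2 fold change stayed between -0.73 and -0.05 in all 17 alternative settings.

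Pde7b had 5.13, 0.67, 3.41 and 4.12 CPM in WT and 1.88, 2.26 and 4.76 CPM in *Smchd1*-null samples. The lowest value came from 3 counts in WT replicate 2 and the groups overlapped (log2 fold change -0.28, SE 0.51). Pde8a, known for its high affinity for cAMP and its resistance to the general inhibitor IBMX, was counted 10, 1, 3 and 8 times in WT and 1, 7 and 6 times in *Smchd1*-null samples. Its means were 1.21 ± 0.95 CPM (SD, n = 4) and 0.87 ± 0.47 CPM (SD, n = 3).

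All 7 fitted genes had a log2 fold change below 0, with a median of -0.08 against 0.00 over all genes tested, of which 49.4% were below 0. For the 6 genes other than Pde9a the values lay between -0.41 and 0, with SEs of 0.14 to 0.51. Of these, Pde1c, Pde3b, Pde4b, Pde7b and Pde10a took the other sign under some of the alternative settings. With each library's trend of expression with gene length removed, the log2 fold changes did not share a direction. They were 0.18 for Pde1c, 0.14 for Pde3b, 0.08 for Pde4b and 0.15 for Pde10a, against -0.23 for Pde4d and -0.09 for Pde7b. The 10 genes together held 160 ± 21.03 CPM in WT samples (SD, n = 4), against 146 ± 16.8 CPM in the mutants (SD, n = 3). Pde9a supplied 13.0 to 15.4% of their counts in WT libraries and 7.12 to 8.84% in *Smchd1*-null libraries.

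To compare levels between genes, CPM was divided by the gene length deposited with the counts, in kb. In WT samples, Pde9a was highest at 6.48 ± 0.51 CPM per kb, followed by Pde4b at 4.82 ± 0.59, Pde3b at 4.22 ± 0.27 and Pde10a at 2.04 ± 0.56 CPM per kb (SD, n = 4). In *Smchd1*-null samples, Pde4b at 4.63 ± 0.49 and Pde3b at 4.48 ± 0.82 CPM per kb came before Pde9a at 3.30 ± 0.64 and Pde10a at 2.04 ± 0.25 CPM per kb (SD, n = 3). Pde4b and Pde3b differed by less than the sum of their SDs in both genotypes, as did Pde3b and Pde9a in *Smchd1*-null samples, while Pde9a and Pde4b differed by more than that in WT. The other genes formed a low group. Their means over all 7 samples were 0.44 CPM per kb for Pde4d and 0.43 for Pde1c. They were 0.26 for Pde8a, 0.26 for Pde7b and 0.19 for Pde5a. Neighbours in that order differed by less than the sum of their SDs. The order at the top depended on the length correction. Over all 7 samples Pde9a ranked 1 per kb of deposited length, 2 per kb of its longest annotated transcript and 4 on CPM without length.

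**Figure D2:**
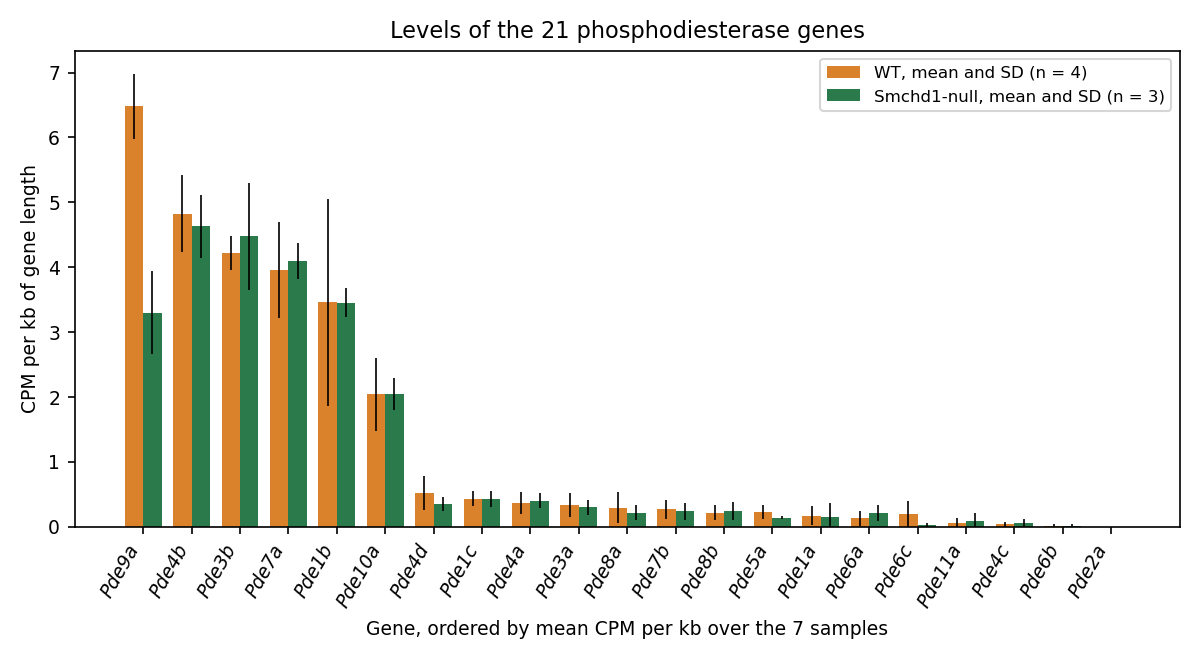
CPM per kb of deposited gene length for 21 catalytic phosphodiesterase genes, ordered by their mean over the 7 samples. Bars are means and lines the SD, for WT (n = 4) and Smchd1-null (n = 3) samples. Pde9a has 6.48 CPM per kb in WT and 3.30 in Smchd1-null samples, and the next 5 genes, Pde4b, Pde3b, Pde7a, Pde1b and Pde10a, differ between genotypes by less than their SDs.

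The difference between batches was not used to choose the genes and could be tested. In a limma fit of genotype and batch on the 6 samples that belong to 1 batch, 11.3% of 13107 genes passed an adjusted p of 0.05 (5.52% were higher in batch 2), and 1 of the 7 phosphodiesterases did. That gene was Pde7b, with 1.60 ± 0.83 CPM in batch 1 and 4.10 ± 0.68 CPM in batch 2 (SD, n = 3 each). In batch 1 it had 0.67, 1.88 and 2.26 CPM and in batch 2 it had 3.41, 4.12 and 4.76 CPM, without overlap. The log2 fold change of batch 2 over batch 1 was 1.46 with an SE of 0.39 (limma adjusted p = 0.0327). The direction was the same within each genotype, but the call was lost when any 1 of the 6 libraries was left out, with log2 fold changes from 1.13 to 2.33. WT replicate 1, sequenced in both batches and not in this fit, had 5.13 CPM.

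Pde10a and Pde4b were also without overlap between batches, as were 32.8% of all genes tested, and both were higher in batch 2. The log2 fold change between batches was 0.49 for Pde10a (SE 0.16, limma adjusted p = 0.0718) and 0.25 for Pde4b (SE 0.12, limma adjusted p = 0.192), so neither passed. For Pde9a it was 0.34 (SE 0.18, limma adjusted p = 0.241). Of the 7 genes 6 had higher fitted values in batch 2, as did 51.8% of all genes, with a median log2 fold change of 0.25 against 0.02 over all genes, and Pde4d was the exception at -0.23 with an SE of 0.37. Fold changes moved with gene length across all genes tested. Spearman's correlation of length with the log2 fold change was -0.38 for genotype and 0.35 for batch, as a description across genes of the same libraries. Of the 7 phosphodiesterases, 6 were longer than the median tested gene of 4160 bases and 1, Pde9a at 3538 bases, was shorter. With each library's length trend removed, the log2 fold change of Pde9a between genotypes was -1.08. That of Pde7b between batches was 1.26 (limma adjusted p = 0.0654). With this removal, 0 of the 7 genes passed 0.05 in either comparison. For Pde9a the limma adjusted p moved only from 0.0498 to just above 0.05. Pde9a was picked with this difference known, so nothing is read from either value.

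**Figure D3:**
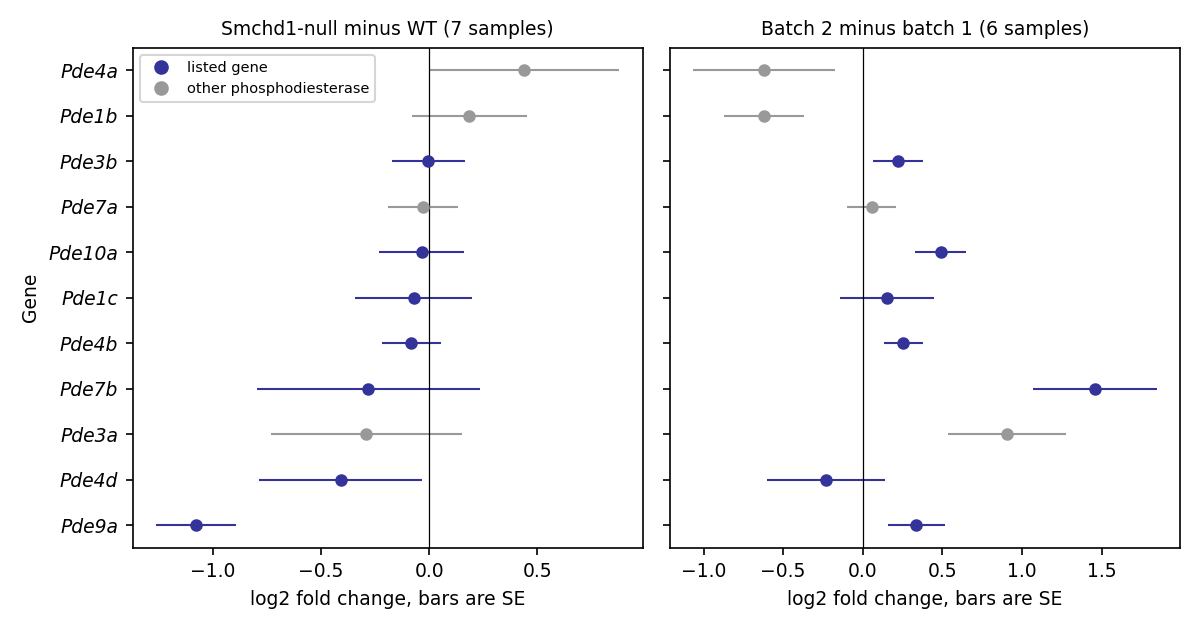
Fitted log2 fold changes with SE for the 7 fitted phosphodiesterases of the set and 4 further ones, for Smchd1-null over WT (left, 7 samples) and batch 2 over batch 1 (right, 6 samples). Pde9a lies farthest from 0 on the left at -1.08, and Pde7b farthest on the right at 1.46.

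Of 11 further catalytic phosphodiesterases, 4 passed the filter and 0 of these passed an adjusted p of 0.05 or 0.25 for genotype. Pde7a, specific for cAMP, had 30.7 ± 5.68 CPM in WT samples (SD, n = 4) against 31.7 ± 2.20 CPM in *Smchd1*-null samples (SD, n = 3), with a log2 fold change of -0.03 (limma adjusted p = 0.952). Pde1b, a relative of Pde1c, had 18.7 ± 8.60 and 18.6 ± 1.19 CPM, with a log2 fold change of 0.19 (limma adjusted p = 0.761). Pde3a and Pde4a had log2 fold changes of -0.29 and 0.44 (limma adjusted p = 0.776 and 0.651). The others, Pde1a, Pde4c, Pde6a, Pde6b, Pde6c, Pde8b and Pde11a, had 4 to 43 counts over all 7 libraries. All 21 genes together held 221 ± 16.2 CPM in WT samples (SD, n = 4), against 208 ± 21.1 CPM in the mutants (SD, n = 3).

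The wider cAMP and cGMP pathway was described with lists of 121 genes, the further phosphodiesterases included, of which 62 were tested. By genotype 0 passed an adjusted p of 0.05 or 0.25 in the limma fit, 34 had a log2 fold change above 0 and 28 below, and the median was 0.02. The edgeR and DESeq2 fits also passed 0. At an unadjusted p under 0.05 the limma fit gave 6 of the 62, against 13.9% of all genes tested, and edgeR and DESeq2 gave 2 and 1. The 6, named after their values were seen, were the adenylyl cyclase genes Adcy1 (log2 fold change 0.46) and Adcy8 (-1.73), Gnai3 (-0.35), the neurotrophin gene Bdnf (0.68), Akap5 (-0.75) and Akap11 (-0.51), with limma adjusted p-values from 0.305 to 0.347. Without WT replicate 2, 9 of 59 tested pathway genes passed 0.25, against 2924 of all 12891 genes tested. Without *Smchd1*-null replicate 3, 8 of 62 passed, against 3153 of all 13395.

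On the cGMP side, the makers of the messenger were sparsely counted. Of 12 genes for guanylyl cyclases and natriuretic peptide receptors 3 were tested, and of 10 genes for their ligands and the nitric oxide synthases 0 were, with 4 of these at 0 in every library. Gucy1b1, the beta subunit of the nitric oxide receptor, had 23.6 ± 6.40 CPM in WT samples (SD, n = 4) against 24.96 ± 5.49 CPM in *Smchd1*-null samples (SD, n = 3), with a log2 fold change of 0.17 (limma adjusted p = 0.725). Npr2, the receptor of C-type natriuretic peptide, had 11.7 ± 2.97 and 12.2 ± 2.83 CPM (log2 fold change 0.29, limma adjusted p = 0.582), and its ligand gene Nppc had 18 counts in all. Of the readers of the messenger, Prkg2 had 12.7 ± 5.82 and 11.9 ± 3.80 CPM (log2 fold change -0.20, limma adjusted p = 0.770), Prkg1 had 17 counts in all, and 0 of 10 genes for cyclic nucleotide-gated channels and the mainly cAMP-responsive HCN channels were tested.

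On the cAMP side, 4 of 12 genes for Gs-coupled receptors and 6 of 7 for G protein alpha subunits were tested. Among 6 tested G protein alpha subunits, Gnai2 of the inhibitory class had 560 ± 129 CPM in WT samples (SD, n = 4) against 556 ± 98.6 CPM in *Smchd1*-null samples (SD, n = 3; limma adjusted p = 0.6005), and Gnai3 had 128 ± 19.9 and 110 ± 24.6 CPM (limma adjusted p = 0.347). Adcyap1r1, the PACAP receptor, had 117 ± 65.2 and 83.0 ± 9.90 CPM (log2 fold change -0.29, limma adjusted p = 0.537), and its wide WT spread came from WT replicate 4 with 1245 counts. Adcy1, a calcium-stimulated adenylyl cyclase, had 13.3 ± 1.85 and 18.5 ± 1.501 CPM without overlap between genotypes (limma adjusted p = 0.328). It was 1 of 5 among the 62 tested pathway genes without such overlap, against 5.53% of all genes tested.

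All 6 protein kinase A subunit genes were tested and none passed. Prkar1a, a regulatory subunit, had 419 ± 19.5 CPM in WT samples (SD, n = 4) against 413 ± 35.8 CPM in *Smchd1*-null samples (SD, n = 3; log2 fold change -0.06, limma adjusted p = 0.821), and Prkaca, a catalytic subunit, had 137 ± 13.5 and 134 ± 11.2 CPM (log2 fold change 0.01, limma adjusted p = 0.984). Akap12, which anchors the kinase at the membrane, had 240 ± 24.1 and 232 ± 14.0 CPM (log2 fold change -0.06, limma adjusted p = 0.821). The exchange factors Rapgef3 and Rapgef4 had log2 fold changes of 0.35 and -0.11 (limma adjusted p = 0.379 and 0.844), and the exporter gene Abcc5 had one of 0.10 (limma adjusted p = 0.809). Among CREB family and target genes, Fos had a log2 fold change of 0.22 and Nr4a1 of -0.07 (limma adjusted p = 0.552 and 0.870).

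By batch, 9 of 61 tested pathway genes passed an adjusted p of 0.05, 7 of them higher in batch 2, against 11.3% of all genes. The higher ones included Adcy6 (log2 fold change 1.48, limma adjusted p = 0.0198), Gnas (1.30, limma adjusted p = 0.0182) and Pde4dip (0.89, limma adjusted p = 0.0144), whose product anchors PDE4 enzymes. The lower ones were Gnai2 (-0.50, limma adjusted p = 0.0124) and Rapgef3 (-0.50, limma adjusted p = 0.0406).

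**Figure D4:**
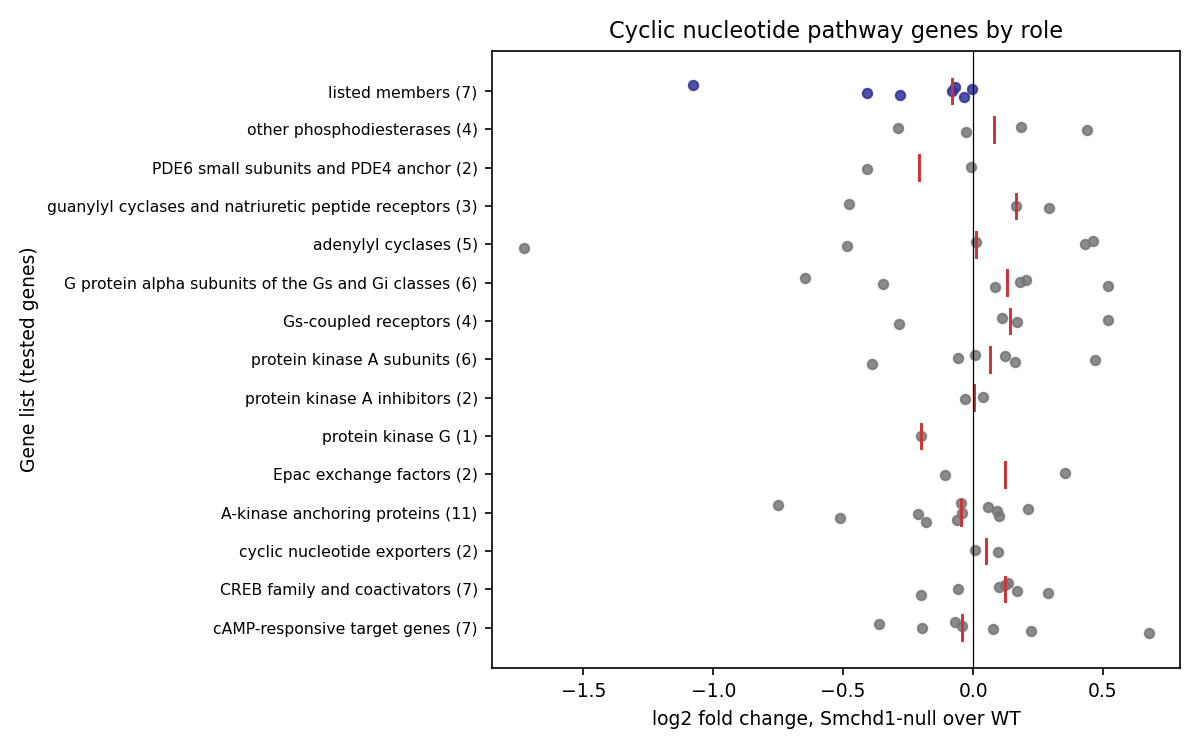
Log2 fold changes of Smchd1-null over WT for the tested genes of each list, 1 point per gene, with the number of tested genes in brackets and the list median as a red line. The phosphodiesterases of the set are in blue with Pde9a at -1.08. Among the grey points, Adcy8 lies lowest at -1.73 and Bdnf highest at 0.68.

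The genes whose log-CPM followed that of Pde9a most closely over the 7 samples, outside the phosphodiesterases, were Mapre1 (Pearson's r = 0.988), Acadl (0.982), Arfgap2 (0.978), Nlk (0.973) and 3110039I08Rik (0.971). The points share libraries, genotype and batch, so r is a description. Acadl, a mitochondrial acyl-CoA dehydrogenase, had 343 ± 9.13 CPM in WT samples (SD, n = 4) against 283 ± 10.6 CPM in *Smchd1*-null samples (SD, n = 3). Mapre1, which encodes a microtubule plus-end protein, moved far less, from 279 ± 2.09 to 268 ± 4.22 CPM. Arfgap2 was counted at a low level of 2.86 ± 0.30 and 1.71 ± 0.39 CPM. Among the other phosphodiesterases of the set, r with Pde9a ranged from -0.04 for Pde3b to 0.55 for Pde5a.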

How the data were processed

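The authors aligned the nanopore reads to mm10 with minimap2 2.17 and counted them per gene with featureCounts on Gencode annotation of GRCm38. The deposited values are whole-number counts per gene and sample, not normalised, with a gene length in bases. Reads of WT replicate 1 from both batches were summed. Strand use is not stated, so reads of overlapping and antisense genes are uncertain, as are those of near-identical copies. Library totals limit the precision of low genes.

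Symbols and coordinates (1-based) came from Gencode GRCm38. Of 55335 identifiers 55154 matched without version. filterByExpr kept 13305 genes. TMM scaling, voomWithQualityWeights and limma with genotype only were used on 7 samples, two-sided, with Benjamini-Hochberg adjustment over all tested genes. Batch was tested with genotype in 6 samples. log-CPM used a prior count of 2. Software was R 4.3.3, limma 3.58.1, edgeR 4.0.16 and DESeq2 1.42.0, tested on simulated data. The members and lists were chosen with earlier results of these data known. Beyond the 10 genes and Smchd1, the text names pathway genes with an adjusted p under 0.25, the 2 highest per kb of a list, and the 5 genes most like Pde9a. Other names were chosen after seeing their values. Alternatives were other tools, scaling, filters, a batch or length term, a replicate block and each library left out.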

Additional observations from a re-analysis of the deposited data

Results flagged for a closer look

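In Akap12, WT replicate 2 lay apart from the other WT samples, with a log-CPM of 7.675 (204 CPM, 918 counts) against 7.97 to 7.99 in the other 3. Chance flags about 1 in 20 groups of 4, or 2.2 of the 44 compared here, and 1 was found.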

How the results depend on the processing

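The log2 fold change of Pde9a between genotypes stayed between -1.16 and -0.86 in all 17 alternatives. Its limma adjusted p was 0.0498, close to the threshold of 0.05. The adjusted p of Pde9a was 0.0522 with DESeq2, and with limma just above 0.05 with the length trend removed. It lay further off with edgeR, at 0.390, and with limma without sample weights, at 0.374. Pde9a was picked with this difference known, so these adjusted p-values describe the settings and do not test the gene. The number of listed phosphodiesterases passing an adjusted p of 0.05, 1 with limma, was 0 with edgeR, DESeq2, no sample weights, every gene with at least 1 count, the batch covariate, the replicate block, the length trend removed, or both of the last, and 0 to 1 with a library left out. At 0.25 it was 0 with edgeR, no sample weights and at least 1 count, and 0 to 1 with a library left out. Pathway genes passing 0.25 numbered 0 to 9 with a library left out. Over all genes, the 12 passing 0.05 became 1 with edgeR, 1 without weights, 2 with at least 1 count, 19 with the batch covariate, 7 with the length trend removed, and 1 to 161 with a library left out. The 144 passing 0.25 (63 higher, 81 lower) became 8 with edgeR, 32 with DESeq2, 10 without weights, 22 with at least 1 count, 346 with at least 10 counts in every sample, 74 with the batch covariate (46 higher, 28 lower), and 1 to 3153 with a library left out.

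By batch, the 1479 genes passing 0.05 became 240 with edgeR, 480 with DESeq2, 209 without weights and 1 to 1369 with a library left out. The 1 listed phosphodiesterase, Pde7b, became 0 with edgeR, no weights, at least 1 count, the length trend removed, and with any library left out (0 to 0). With DESeq2 it had a log2 fold change of 1.72 but was given no adjusted p. The filter of at least 10 counts in every sample removed Pde7b. The count was 0 in these settings too, but neither tested the call. The batch difference of Pde1c, 0.15, reversed to -0.15 with the length trend removed and ranged from -0.050 to 0.70 with a library left out. That of Pde4d, -0.23, ranged from -0.47 to 0.40 with a library left out. Pde9a ranked 4 on CPM without length and 2 per kb of the longest transcript. The cause of these changes was not tested.

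Whether the replicate numbers pair the samples cannot be told from these data. Deviations of same-numbered samples correlated at -0.04, 0.36 and 0.09 for replicates 1 to 3. The samples of replicates 2 and 3 also shared a batch, so number and batch cannot be separated. Samples of the same batch with different numbers correlated at 0.30 and 0.21. Adding the replicate block let 23 genes pass 0.05, or 35 with the length trend removed as well. Low counts limit Pde5a (63 in all) and Pde8a (36 in all), which were not fitted.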
